A study of Mus musculus with 32 samples.

Results

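The lower and the upper jaw of the normal mouse embryo were compared at their distal ends. The comparison used the 4 arrays labelled control, mandible and distal against the 4 arrays labelled control, maxilla and distal, so 8 of the 32 arrays of the series. No measured value entered the choice of arrays. The tissue was taken at embryonic day 13.5 from embryos of strain C57B6. The series was made to study Alk5 (gene Tgfbr1), a type I TGF-beta receptor. Parents of genotype Wnt1cre;Alk5fl/+ were crossed with Alk5fl/fl partners, so that mutant offspring lost the receptor in the Wnt1-Cre lineage, which is the neural crest and its descendants. The mutants were told from their littermates by cleft palate and a defect of the skull vault, and the controls were those littermates. The alleles of the controls are not given. By the cross each control inherits at least 1 floxed allele, and it may carry the Cre transgene beside an intact allele. The other arrays were control proximal tissue (4 per jaw), mutant distal tissue (4 per jaw) and mutant proximal tissue (4 per jaw). Their values are given only where named. All 32 arrays entered the fit, so the other arrays bear on every SE and p-value of the distal comparison. Nothing in the labels says whether 1 array stands for 1 embryo or for a pool, nor that the 4 numbered arrays of a group are separate embryos. P-values therefore measure the spread between arrays within the 8 groups of the series, which may be technical in part.

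Mandible and maxilla grow from the same pharyngeal arch, whose mesenchyme is mostly neural crest. Endothelin signalling in the lower part of the arch switches on Dlx5, Dlx6 and, below them, Hand2, and these transcription factors give the mandible its identity, while the maxilla develops without them. At the front, the maxillary tissue meets the nasal region, where the olfactory placode gives rise to sensory epithelium and migrating neurons, and the mandibular tissue carries the tongue and the lower incisor field. Dissected jaw ends hold mesenchyme, surface and oral epithelium, nerve, vessel, muscle and blood cells. In such samples a change in the number of cells of a type and a change of RNA per cell cannot be told apart.

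Array medians lay between 7.37 and 7.46 on the log2 scale, and 0 pairs of arrays were identical. Arrays correlated at 0.961 to 0.994 over the tested genes, except that maxilla array 2 correlated with the other 7 at only 0.945 to 0.964. Mandible array 3 had a Gapdh signal that was 2.23 higher at the 3' end than at the 5' end of the transcript, against -0.15 to 0.12 on the other 7 arrays. The arrays numbered 1 read 13.71 and 13.84 for the Cre spike-in, a control RNA added at the array step, against 12.42 to 13.23 on the others. Array 2 of each jaw had high Xist (13.91 in mandible, 13.95 in maxilla) and low Y-linked Eif2s3y (3.58 and 3.39), so 1 array of each jaw read as female. Maxilla array 3 had Xist at 9.69 together with Eif2s3y at 10.23. Mandible array 3 had Xist at 6.70, so the arrays numbered 3 were not alike in this marker. Maxilla array 2 also stood apart in cell type markers. Sox1 and Six6, neural and eye-field genes, read 9.90 and 9.72 there and no more than 4.43 and 5.56 on the other 7 arrays. The neural progenitor genes Neurog2 (9.56), Hes5 (9.37) and Dll3 (10.17) and the glial gene Fabp7 (11.69) were also more than 2 log2 units above every other array. The surface keratin genes Krt5 (7.47) and Krt14 (9.06) and 7 other genes of the lists, among them Msx2, Tfap2a, Lef1 and Wnt6, were as far below every other array. Without maxilla array 2, 142 genes were called, 124 of the 202 calls were among them, and 0 of the 202 turned sign. Of these, Pde1c (-1.21 to -0.77) and Pknox2 (-1.09 to -0.70) moved by more than 1.5 times and lost their calls. Of 465 list or named genes that were not called, 76 turned sign without it, so small differences of uncalled genes carry no direction.

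A gene was called when its mandible minus maxilla difference had an adjusted p under 0.05 (limma, Benjamini-Hochberg over 13705 genes). By this test 202 genes (1.47%) differed, of which 54 (0.394%) were higher in the mandible and 148 (1.08%) were higher in the maxilla. Counts of called list members in later paragraphs are to be read against these shares. The median size among the calls was 0.89 on the log2 scale, or 1.85-fold, for those higher in mandible, and -1.21, or 2.31-fold, for those higher in maxilla. More than a log2 difference of 2 separated the jaws for 7 genes higher in mandible and 35 higher in maxilla. In all 802 genes (5.85%) had 4 mandible values and 4 maxilla values that did not overlap, and 189 of the 202 calls were among them. The level of the low-signal filter lay at 6.68 to 6.72 on these arrays, and differences that reach below it are compressed, so their sizes are approximate. Among the calls, all 4 arrays of the lower jaw lay under that level for 33 of the 148 genes higher in maxilla (22.3%), and all 4 maxilla arrays did for 7 of the 54 higher in mandible (13.0%). The count depended on the arrays used. Leaving out every array of 1 number, in all 8 groups of the series, gave 351, 66, 69 and 94 calls for numbers 1 to 4. The count was 130 without distal control mandible array 4 alone, and 107 without maxilla array 2 and mandible array 3.

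**Figure D1:**
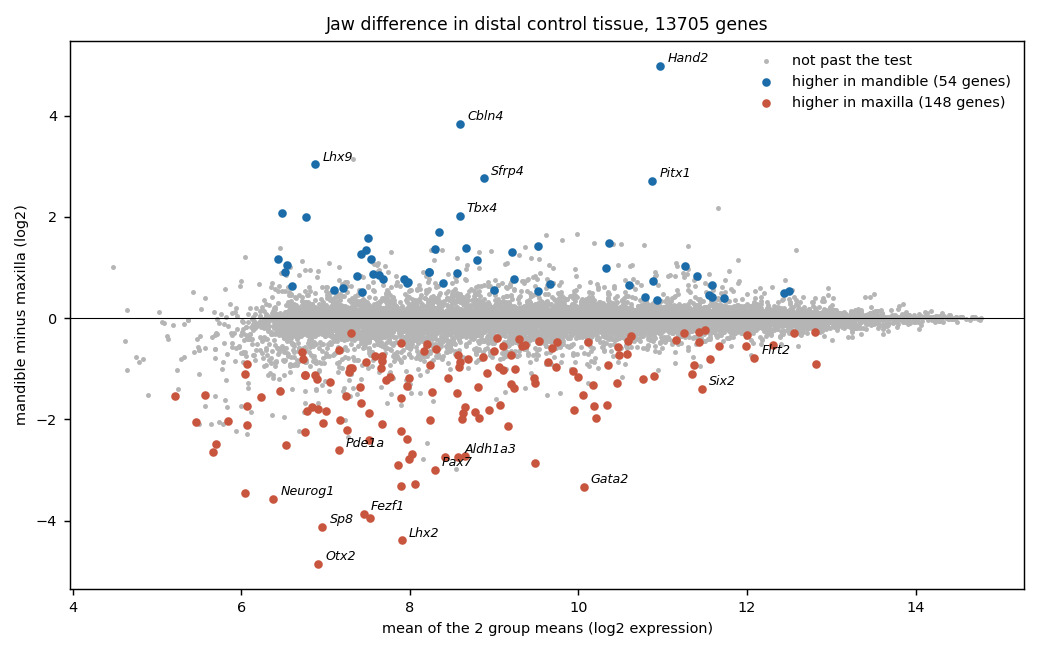
Mandible minus maxilla difference (log2, vertical) against the mean of both group means (log2, horizontal) for 13705 genes, with 4 arrays per jaw. The 54 genes higher in mandible reach 4.99 (Hand2), and the 148 genes higher in maxilla reach -4.85 (Otx2).

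Hand2, the basic helix-loop-helix factor that sets mandibular identity below endothelin signalling, had the largest difference. It read 13.56, 13.35, 13.54 and 13.41 on mandible arrays 1 to 4 and 7.63, 9.33, 8.52 and 8.40 on maxilla arrays 1 to 4. Every mandible array lay more than 4 log2 units above every maxilla array. The difference was 4.99 ± 0.53 (SE, n = 4 per jaw), or 31.9-fold (adjusted p = 2.36e-06), and both other probe sets of Hand2 gave the same sign, at 2.49 and 2.96. Hand2 is the defining marker of mandibular mesenchyme, so the jaw labels of all 8 arrays matched it. Its relative Hand1 read 8.14, 7.68, 8.41 and 7.79 in mandible and 7.28, 6.96, 6.92 and 7.34 in maxilla. The arrays of Hand1 did not overlap, and the difference was 0.88 ± 0.21 (adjusted p = 0.0221). The call of Hand1 was lost when mandible array 1 or 3 or maxilla array 2 or 3 was left out (adjusted p = 0.0584 to 0.115).

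Pitx1, the homeobox factor of the lower jaw and the hindlimb, read 12.07, 12.21, 12.45 and 12.19 in mandible and 8.45, 9.84, 9.83 and 9.97 in maxilla. Maxilla array 1 was the lowest, and the gap between the jaws was clear on every array. The difference was 2.71 ± 0.30 (6.52-fold, adjusted p = 4.63e-06). Gsc, which encodes goosecoid, a homeobox factor active in the lower jaw and around the ear, read 10.09, 11.02, 11.36 and 10.84 in mandible and 9.23, 10.53, 10.08 and 9.49 in maxilla. Here mandible array 1 lay below maxilla array 2, so the jaws overlapped. The difference of Gsc, 0.99 ± 0.26 (adjusted p = 0.0477), was at the threshold and lost the call when any 1 of 6 arrays was left out, namely mandible 2, 3 or 4 or maxilla 1, 3 or 4 (adjusted p = 0.0585 to 0.205). These 4 genes were the called members of the lower-jaw identity list, of 15 tested, against 0.394% called higher in mandible over all genes. The median difference of the list was 0.47, against -0.01 over all genes, and 0.26 without maxilla array 2.

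**Figure D2:**
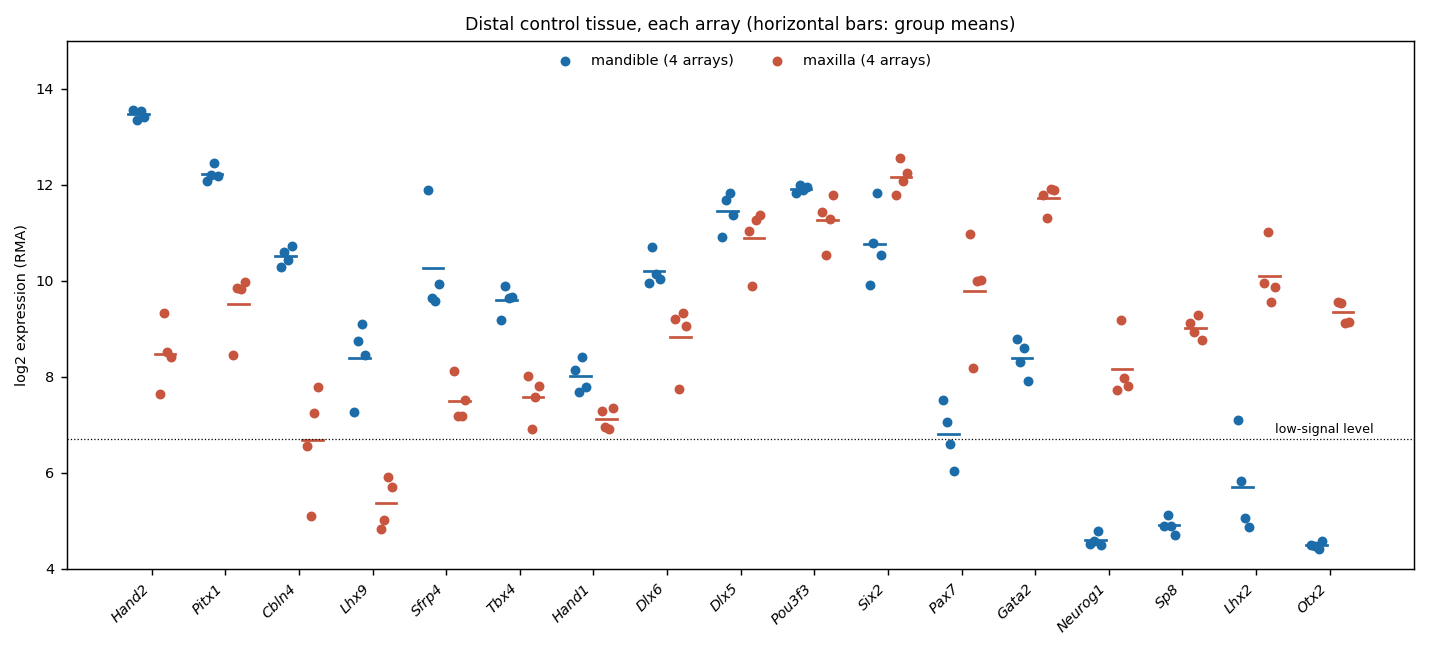
Log2 expression of 17 genes on each of the 4 mandible and 4 maxilla arrays, with bars at the group means and a dotted line near the level of the low-signal filter. Hand2 lies at 13.35 to 13.56 in mandible and 7.63 to 9.33 in maxilla, and Otx2 at 4.42 to 4.57 in mandible and 9.12 to 9.56 in maxilla.

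None of the 6 Dlx genes, of which Dlx5 and Dlx6 act above Hand2 in lower-jaw patterning, was called in distal control tissue. Dlx6 came closest, with 9.96, 10.71, 10.14 and 10.03 in mandible and 9.21, 7.74, 9.33 and 9.05 in maxilla. The Dlx6 arrays did not overlap, with maxilla array 2 far below its group, and the difference was 1.38 ± 0.46 (95% confidence interval 0.44 to 2.32, adjusted p = 0.168). Without maxilla array 2 the Dlx6 difference was 1.01 (adjusted p = 0.577). Dlx5 read 10.92 to 11.82 in mandible and 9.90 to 11.36 in maxilla, with a difference of 0.55 (-0.11 to 1.22, adjusted p = 0.621). Dlx5 was thus high on the arrays of both jaws. Dlx1, Dlx2, Dlx3 and Dlx4 differed by -0.01, 0.12, 0.22 and 0.14, with confidence intervals that included 0 and adjusted p of 0.966 to 0.999. Without maxilla array 2 these values were 0.50, 0.35, -0.28 and -0.14, and that of Dlx5 was 0.22, so 3 of the 5 turned sign. Dlx4 lay near the low-signal level in both jaws (6.64 ± 0.25 and 6.50 ± 0.62, SD, n = 4). In distal mutant tissue Dlx5 (1.12, adjusted p = 0.0197) and Dlx6 (2.12, adjusted p = 0.00212) were called higher in mandible, and Dlx1 to Dlx4 were not called. The control minus mutant difference of jaw differences did not pass for Dlx5 (-0.57, adjusted p = 0.837) or Dlx6 (-0.75, adjusted p = 0.849).

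The proximal ends, which share no array with the distal ones, gave other values. There Dlx4, Dlx5 and Dlx6 were higher in control mandible by 2.02, 1.62 and 2.55 (adjusted p = 2.51e-05, 0.00207 and 0.000712). The distal minus proximal difference of the jaw differences did not pass the test for Dlx5 (-1.07, adjusted p = 0.595) or Dlx6 (-1.17, adjusted p = 0.866). It passed for Dlx4 (-1.88, adjusted p = 0.0297). The Dlx4 call was lost without any 1 of 8 of the 16 control arrays (adjusted p up to 0.08). Dlx4 read 8.20 ± 0.33 in proximal mandible and 6.18 ± 0.32 in proximal maxilla. Its proximal mandible group thus stood alone above the other 3 control groups. Hand2 was higher in mandible at both ends (3.47 proximally, adjusted p = 0.000113), and the test of its end dependence gave 1.52 (adjusted p = 0.748). Pitx1 differed by 2.56 proximally and 2.71 distally, with an end dependence of 0.15 ± 0.42 (adjusted p = 1).

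**Figure D3:**
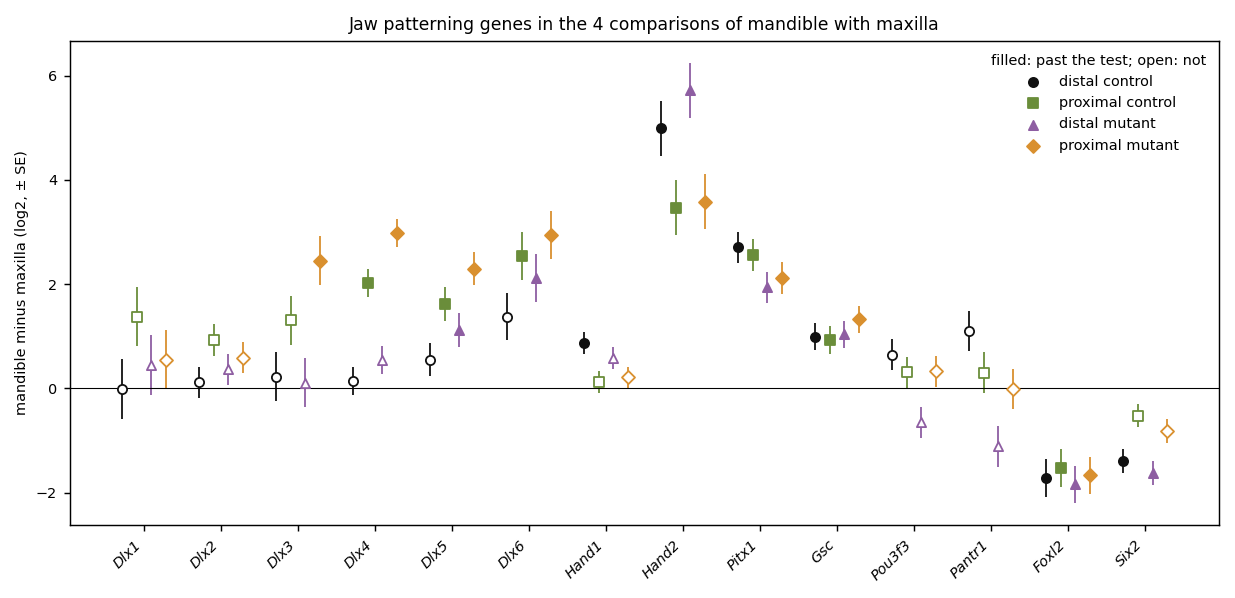
Mandible minus maxilla difference (log2, with SE) of 14 jaw patterning genes in distal control, proximal control, distal mutant and proximal mutant tissue, with 4 arrays per jaw each and filled symbols for genes past the test. Dlx4 lies at 0.14 in distal control and 2.02 in proximal control, while Hand2 and Pitx1 are filled in all 4 comparisons.

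Further transcription factors were higher in the mandible. Tbx4, a T-box gene best known from the hindlimb and lung, read 9.19, 9.89, 9.64 and 9.66 in mandible and 8.02, 6.91, 7.58 and 7.81 in maxilla. The jaws were separated by more than 1 log2 unit. The Tbx4 difference was 2.02 ± 0.24 (4.05-fold, adjusted p = 9.24e-06), with 0.93 on its other probe set. Its close relative Tbx5 differed by 0.84 ± 0.16 (adjusted p = 0.00297). These were the 2 called of 9 T-box genes, against 0.394% called higher in mandible over all genes. The list median was 0.27. The 7 others ranged from -0.45 (Tbx20) to 1.03 (Tbx18, adjusted p = 0.53).

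Lhx9, a LIM-homeobox gene, read 7.27, 8.74, 9.10 and 8.46 in mandible and 4.83, 5.01, 5.90 and 5.70 in maxilla. All 4 maxilla arrays of Lhx9 lay under the low-signal level, so the difference of 3.04 ± 0.39 (adjusted p = 2.96e-05) is approximate. Lhx2, of the same family, went the opposite way (-4.39), and the other 9 LIM-homeobox genes tested were not called. Lhx6 and Lhx8, which mark the oral mesenchyme of both jaws, differed by 0.30 (adjusted p = 0.947) and 0.76 (adjusted p = 0.436). Tlx1, a homeobox gene needed for the spleen, was 1.26 higher in mandible (adjusted p = 0.000303), while Tlx2 (-0.27) and Tlx3 (-0.01) were not called. Nkx2-3 was 1.14 higher (adjusted p = 0.00834). Meox1, a somite homeobox gene, was 1.43 higher (adjusted p = 0.0285) and lost the call without maxilla array 1, 3 or 4 or mandible array 3 (adjusted p = 0.0718 to 0.141). The homeobox genes Isl1 (0.01), Msx1 (0.39), Msx2 (0.75) and Barx1 (-0.30), all known from the distal or oral arch, were not called, with adjusted p of 0.858 or more. Without maxilla array 2 Msx1, Msx2 and Barx1 differed by -0.20, 0.07 and 0.42.

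Several of the genes highest in mandible encode secreted or membrane proteins. Cbln4, a secreted synapse organizer of the cerebellin family, read 10.29, 10.60, 10.43 and 10.73 in mandible and 6.56, 5.10, 7.25 and 7.79 in maxilla. The mandible arrays were tight and the maxilla arrays spread, with 2 of them under the low-signal level. The difference of Cbln4 was 3.84 ± 0.47 (14.3-fold, adjusted p = 1.36e-05). Sfrp4, a secreted antagonist of Wnt ligands, read 11.88, 9.64, 9.58 and 9.94 in mandible and 8.12, 7.19, 7.18 and 7.51 in maxilla. Mandible array 1 stood above its group, yet all mandible arrays exceeded all maxilla arrays. The Sfrp4 difference was 2.76 ± 0.34 (adjusted p = 1.48e-05), and 2.22 without mandible array 1. Sfrp4 was the only called one of 12 Wnt antagonists, and Sfrp1 (-0.89) and Sfrp2 (-0.43) had values of the other sign that did not pass (adjusted p = 0.193 and 0.477).

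Tnfsf11, the ligand RANKL that activates osteoclasts, read 7.85, 7.65, 7.61 and 6.98 in mandible and 6.09, 4.71, 5.81 and 5.16 in maxilla. All 4 maxilla arrays lay under the low-signal level. The Tnfsf11 difference was 2.08 ± 0.42 (adjusted p = 0.00638), but another probe set, used when no low-signal filter was set, gave 0.48 (adjusted p = 0.708). Aqp4, a water channel, differed by 1.99 (adjusted p = 0.000574), also with its 4 maxilla arrays under that level, and its other probe set gave 0.25. Pamr1 (1.59), the cell cycle regulator gene Rgcc (1.48), the complement-pathway protease gene Masp1 (1.36) and the amino acid transporter gene Slc7a8 (1.35) followed, with adjusted p of 3.2e-05 to 0.00353. Nexmif (1.38) lost its call without mandible array 2 (adjusted p = 0.0556). Edaradd, the adaptor of the ectodysplasin receptor, was 0.67 higher (adjusted p = 0.0223) and lost the call without mandible 1 or 3 or maxilla 1, 3 or 4 (adjusted p = 0.051 to 0.131). Its partners Eda (-0.26) and Edar (0.01) were not called.

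The promoters of the genes higher in mandible were read for 3 short motifs, because Hand2 binds E-boxes and the 2 genes that led the maxilla, Otx2 and Lhx2, encode homeobox factors. The window was the 250 bases before each annotated start in RefSeq (GRCm38.p6). The motifs were CAGATG, read CATCTG on the other strand, an E-box that Hand2 and the Neurog and Neurod factors recognise, TAATCC, read GGATTA on the other strand, of the Otx and Pitx class, and TAATTA, the same on both strands, of the general homeobox class. TAATCC and TAATTA both open with TAAT and then differ, so matches of the 2 can overlap only in part. CAGATG stood in 15 of 42 promoters of genes higher in mandible (35.7%), which belonged to 13 of 33 genes found in the table. Genes higher in maxilla held it in 19 of 164 promoters (11.6%), all tested genes in 10.4% and all 32851 promoters of the table in 14.4%. TAATCC was found in 2.38% of the mandible promoters and 6.71% of the maxilla ones, against 4.97% for tested genes. TAATTA was found in 7.14% and 6.71%, against 2.53%. These shares are a description without a test, and a match is not a bound site. Of the 15 largest non-overlapping calls higher in mandible, 9 genes had a promoter in the table and 5 of those held CAGATG. These 5 are shown, with the E-box in capitals. The 17 maxilla genes that held CAGATG, among them Otx2 (-4.85) and Pde1a (-2.61), are not shown.
Hand2, chr8:57320733-57320982, + strand: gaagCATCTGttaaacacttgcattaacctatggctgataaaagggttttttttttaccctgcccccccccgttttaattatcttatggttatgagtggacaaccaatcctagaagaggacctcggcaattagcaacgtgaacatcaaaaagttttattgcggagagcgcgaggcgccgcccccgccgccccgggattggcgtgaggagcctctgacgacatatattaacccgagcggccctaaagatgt
Tnfsf11, chr14:78308044-78308293, - strand: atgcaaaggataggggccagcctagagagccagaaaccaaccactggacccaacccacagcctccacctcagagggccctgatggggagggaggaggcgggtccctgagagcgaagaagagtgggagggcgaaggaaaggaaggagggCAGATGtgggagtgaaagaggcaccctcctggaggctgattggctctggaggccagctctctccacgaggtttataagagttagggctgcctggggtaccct
Tbx4, chr11:85896515-85896764, + strand: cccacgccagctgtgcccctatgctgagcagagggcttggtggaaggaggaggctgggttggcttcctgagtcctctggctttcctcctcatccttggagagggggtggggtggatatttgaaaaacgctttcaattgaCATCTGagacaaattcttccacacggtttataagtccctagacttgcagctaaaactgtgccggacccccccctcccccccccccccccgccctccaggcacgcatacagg
Slc7a8, chr14:54781887-54782136, - strand: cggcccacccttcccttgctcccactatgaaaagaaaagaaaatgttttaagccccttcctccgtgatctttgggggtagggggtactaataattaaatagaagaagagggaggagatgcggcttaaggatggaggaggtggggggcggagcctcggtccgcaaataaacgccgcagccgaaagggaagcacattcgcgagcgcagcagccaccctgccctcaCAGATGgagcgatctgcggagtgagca
Tlx1, chr19:45150465-45150714, + strand: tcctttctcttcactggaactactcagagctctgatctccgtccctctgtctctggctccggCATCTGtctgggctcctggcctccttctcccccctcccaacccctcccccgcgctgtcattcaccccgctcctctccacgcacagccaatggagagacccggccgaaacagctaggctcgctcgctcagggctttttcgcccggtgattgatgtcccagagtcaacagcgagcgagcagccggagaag

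The E-box lay 246 bases before the start of Hand2 itself, 102 before Tnfsf11, 111 before Tbx4, 27 before Slc7a8 and 188 before Tlx1, counted from its 5′ base on the gene's strand. Among the maxilla genes, Otx2 held all 3 motifs, Sp8 held both homeobox motifs, and Neurog1 held TAATTA.

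Otx2 and Lhx2 had the largest differences among the genes higher in maxilla. Otx2, a homeobox factor of the forebrain, nose and eye, read 4.50, 4.48, 4.42 and 4.57 in mandible and 9.56, 9.53, 9.12 and 9.15 in maxilla. All 4 mandible arrays of Otx2 lay far under the low-signal level and no maxilla array came near them. The difference was -4.85 ± 0.63, or 28.8-fold higher in maxilla (adjusted p = 2.86e-05). Six3, which works with Otx2 in the anterior head, differed by -2.22 ± 0.33 (adjusted p = 0.000185), and its antisense neighbour Six3os1 by -3.46 (adjusted p = 0.00297). The next gene along, Six2, was also higher in maxilla (-1.39, adjusted p = 0.000731), but mandible array 3 (11.83) lay above maxilla array 1 (11.78). The Six2 call was lost in a fit of these groups alone, and without all arrays numbered 2 or all numbered 4 (adjusted p up to 0.198). Sox2, a factor of neural and sensory progenitors, read 9.55 to 10.26 in mandible and 10.70 to 11.80 in maxilla, so it was well above background in both jaws, and differed by -1.28 (adjusted p = 0.00483). Otx2, Six3 and Sox2 were the 3 called of 11 tested brain and pituitary markers, against 1.08% called higher in maxilla over all genes. Of the other 8, Six6 (-1.53, adjusted p = 0.794) and Sox1 (-1.51, adjusted p = 0.845) had the largest values, which came from maxilla array 2 alone. The remaining 6 ranged from -0.10 (Emx1) to 0.39 (Pitx3), and the list median was -0.10.

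Several genes of olfactory and neuronal precursors were higher in maxilla. Lhx2, a LIM-homeobox factor of olfactory progenitors and whisker follicles, read 7.09, 5.82, 5.06 and 4.87 in mandible and 9.96, 11.02, 9.55 and 9.86 in maxilla. The jaws did not overlap, and 3 mandible arrays lay under the low-signal level. Its difference was -4.39 ± 0.52 (20.9-fold, adjusted p = 9.39e-06). Sp8, a zinc finger factor of the nasal pits, read 4.89, 5.12, 4.89 and 4.70 in mandible and 9.11, 8.93, 9.28 and 8.76 in maxilla (-4.12, adjusted p = 0.000469). Neurog1, which starts sensory neurogenesis, read 4.50 to 4.78 in mandible and 7.72, 9.18, 7.97 and 7.80 in maxilla. Maxilla array 2 was the highest for Lhx2 and Neurog1. The Neurog1 difference was -3.57 ± 0.42 (adjusted p = 9.24e-06), but its other probe set gave -0.03. Neurod1, which acts after Neurog1 in the same neurons, differed by -3.94 on the tested probe set and -4.43 on the other one (adjusted p = 0.000554). Fezf1, needed for olfactory axons, differed by -3.86 (adjusted p = 0.000185).

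Lhx2, Sp8 and Neurog1 were the 3 called of 12 tested olfactory and nasal genes, against 1.08% called higher in maxilla over all genes. Other early genes of that list, Pax6 (-0.04), Dlx5 (0.55), Ebf1 (-0.41) and Ebf3 (0.08), were not called. The markers of mature olfactory neurons on that list, Omp (0.03), Gnal (-0.02), Gng13 (0.07) and Adcy3 (0.19), were not called, with adjusted p of 0.48 or more. The mean level of the list was 7.80 to 8.30 over the mandible arrays and 8.99 to 9.24 over the maxilla arrays, and its median difference was -0.03. Of the 18 tested members of the neuron list 0 had a positive difference, the median was -0.90 (-0.70 without maxilla array 2), and 2 members passed. Its mean level ran from 7.78 to 8.34 in mandible and from 8.86 to 9.79 in maxilla, with maxilla array 2 the highest. The 2 were the RNA-binding protein genes Elavl3 (-1.86, adjusted p = 0.0202) and Elavl4 (-1.97, adjusted p = 0.049). Elavl3 did not pass without maxilla array 2 (-1.47, adjusted p = 0.122) or mandible array 3 or 4, and Elavl4 did not pass without any 1 of 7 of the 8 arrays (adjusted p = 0.0776 to 0.228). Of 8 sensory ganglion genes tested 2 were called, Neurog1 and Neurod1, both higher in maxilla. Isl1 (0.01), Ntrk2 (0.27), Ntrk3 (-0.11), Avil (-0.05) and Neurog2 (-1.22, adjusted p = 0.823, from maxilla array 2) were not called, and Pou4f1 lay under the low-signal level on all 8 arrays. How far neurons or nasal epithelium in the maxilla dissections account for the maxilla calls was not tested.

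**Figure D4:**
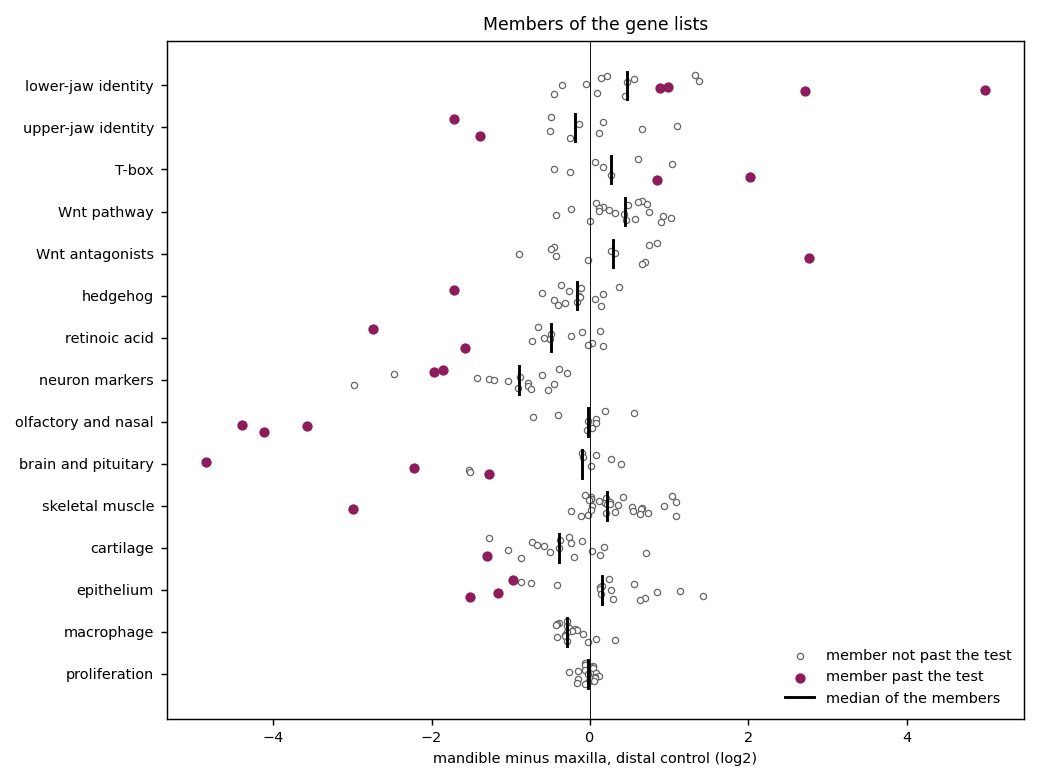
Mandible minus maxilla difference (log2) of every tested member of 15 gene lists, with filled points for members past the test and a bar at the median. The neuron list lies wholly below 0 with a median of -0.90, and the olfactory and nasal list has 3 members at -3.57 to -4.39 while its median is -0.03.

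The remaining large maxilla differences belonged to several classes. Gata2, a zinc finger factor, was strong on all maxilla arrays (11.78, 11.31, 11.91 and 11.90) and lower on all mandible arrays (8.79, 8.30, 8.59 and 7.91). Both groups of Gata2 lay well above the low-signal level, and the difference was -3.33 ± 0.34 (10.0-fold, adjusted p = 2.27e-06), with -3.48 on its other probe set. The forkhead gene Foxa1 (-3.27, adjusted p = 2.86e-05) was highest on maxilla array 1. The Ets factor gene Elf5 (-2.75), the tight junction gene Cldn9 (-3.32), the thyroid hormone binding protein gene Crym (-2.86) and Fam107a (-2.79) had adjusted p of 0.000103 to 0.000503. Other probe sets gave -1.27 for Cldn9, and -1.60 and -1.05 for Fam107a. Of 19 epithelial markers 3 were called, all higher in maxilla, against 1.08% over all genes. They were keratin and claudin genes of simple epithelia: Krt8 (-1.51, adjusted p = 0.00199), Krt18 (-1.16, adjusted p = 0.0183) and Cldn3 (-0.97, adjusted p = 0.0442). Krt18 lost its call without any 1 of 5 arrays and Cldn3 without any 1 of the 8 (adjusted p up to 0.074 and 0.141). The epithelial genes Epcam (-0.42), Cdh1 (0.24), Krt5 (1.43) and Krt14 (1.14) were not called (adjusted p = 0.457 to 0.823). Without maxilla array 2 Krt5 and Krt14 differed by 0.39 and 0.38, and the list median turned from 0.15 to -0.06.

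Some genes higher in maxilla are known from facial mesenchyme. Pax7, a paired-box factor of nasal neural crest and of muscle progenitors, read 7.52, 7.05, 6.60 and 6.03 in mandible and 10.97, 8.19, 9.99 and 10.02 in maxilla. Maxilla array 2 was the lowest of its group and still above the mandible arrays. The Pax7 difference was -2.99 ± 0.55 (adjusted p = 0.00221), and -3.52 without maxilla array 2. Pax7 was the only called one of 31 skeletal muscle markers, whose mean level overlapped between the jaws (7.27 to 8.84 in mandible, 6.68 to 8.99 in maxilla) and whose median difference was 0.22, or 0.73 without maxilla array 2. The muscle regulators Myod1 (0.53, adjusted p = 0.904) and Myf5 (0.25, adjusted p = 0.99) were not called. Foxl2, a forkhead gene of the eyelid and upper jaw, differed by -1.72 (adjusted p = 0.00813), with 8.08 to 8.49 in mandible and 8.82 to 11.06 in maxilla. The other probe set of Foxl2 gave only -0.35. Its neighbour Foxl2os differed by -2.41 (adjusted p = 0.00297). Foxl2 and Six2 were the 2 called of 10 upper-jaw identity genes, against 1.08% called higher in maxilla over all genes. The list median was -0.20 (-0.18 without maxilla array 2), and 4 of the 10 differences were positive. The forkhead gene Foxd1, a hedgehog target in facial mesenchyme, read 9.12 to 10.04 in mandible and 10.76 to 11.94 in maxilla and differed by -1.72 (adjusted p = 0.000773). Pou3f3 and its neighbour Pantr1, known as upper-arch genes, differed by 0.65 (adjusted p = 0.445) and 1.10 (adjusted p = 0.225), and by 0.41 and 0.62 without maxilla array 2, so neither was called.

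In the handling of retinoids, 2 genes were higher in maxilla. Aldh1a3, which makes retinoic acid in the nasal and eye region, read 7.97, 7.21, 6.95 and 6.67 in mandible and 9.43, 10.26, 10.36 and 9.69 in maxilla. The groups of Aldh1a3 were well apart, at -2.74 ± 0.44 (6.66-fold, adjusted p = 0.000503), and 2 further probe sets gave -1.59 and -1.54. Stra6, the cell-surface receptor that takes up retinol, differed by -1.58 (adjusted p = 0.000503). They were the 2 called of 13 retinoic acid genes, against 1.08% called higher in maxilla over all genes. The list median was -0.49 (-0.27 without maxilla array 2). The degrading enzyme gene Cyp26b1 (-0.24) and the receptor genes Rara (-0.50) and Rarb (-0.73) were not called (adjusted p = 0.395 to 0.926).

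Some gene families held several maxilla calls, a grouping made after their values were seen, so the choice itself raises their counts. Over all genes tested 1.08% were called higher in maxilla. In the Dmrt family of zinc finger factors, Dmrt3 (-2.90, adjusted p = 5.67e-06), Dmrta1 (-2.64, adjusted p = 0.000186) and Dmrta2 (-2.13, adjusted p = 0.00533) were 3 called of 5 tested. In the Slitrk family of neuronal adhesion proteins, Slitrk1 (-2.20, adjusted p = 0.00174), Slitrk4 (-2.01, adjusted p = 0.0002) and Slitrk5 (-2.02, adjusted p = 1.36e-05) were 3 called of 5. Slitrk6 differed by 0.07 (adjusted p = 0.989). In the Elavl family, the neuronal members Elavl2 (-1.38, adjusted p = 0.0151), Elavl3 and Elavl4 were called and the general member Elavl1 (-0.05) was not. Among matrix genes, 3 of 30 were called, all higher in maxilla: Mfap4 (-0.53, adjusted p = 0.00407), Col8a1 (-1.15, adjusted p = 0.0158) and Col14a1 (-1.99, adjusted p = 0.0161). Col14a1 lost its call without any 1 of 5 arrays, and its mandible array 1 lay above the 2 lowest maxilla arrays. Col8a1 lost its call without maxilla array 1 or 2 or mandible array 4 (adjusted p = 0.0625 to 0.0995). Sox5 (-1.30, adjusted p = 0.00329) was the only called one of 18 cartilage genes, with Sox9 at -0.87 (adjusted p = 0.19) and Col2a1 at -0.73 (adjusted p = 0.51). The cartilage list median was -0.38, and -0.17 without maxilla array 2.

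Among the signalling pathways, the counts of calls were read against the 1.47% called over all genes. Of 20 Wnt ligands, receptors and targets, 18 had a positive difference and the median was 0.45, but 0 passed the test, and the median was 0.09 without maxilla array 2. Wnt2 (0.92, adjusted p = 0.137) and Wnt10a (0.74, adjusted p = 0.126) had the smallest adjusted p among them. Of 21 BMP pathway genes, the BMP-binding protein gene Bmper was the 1 called, at -1.33 (adjusted p = 0.00352), and Bmp4 differed by 0.29 (adjusted p = 0.889). Of 19 FGF genes the feedback inhibitor gene Il17rd was called (-0.71, adjusted p = 0.00867, and -0.59 with adjusted p = 0.0568 without maxilla array 2), and of 15 hedgehog genes Foxd1. Of 26 axon guidance genes Flrt2 was called (-0.78, adjusted p = 0.00895), and not without maxilla array 2 or mandible array 4 (adjusted p = 0.0587 and 0.0541). The endothelin list had 0 of 9 called, with Edn1 at -0.05 and Ednrb at -0.59 (adjusted p = 0.99 and 0.621). Tgfbr1, the floxed gene of the series, differed by 0.03 (-0.12 to 0.18, adjusted p = 0.978), and its 2 other probe sets gave -0.36 and -0.06. Of 12 TGF-beta ligand and receptor genes 0 were called. The Notch, Hox, bone, tongue muscle factor, endothelial, macrophage, red cell, Schwann cell, pigment cell, eye, proliferation, glycolysis and early stress lists also had 0 called members. Median differences of these lists ran from -0.36 (Schwann cell) to 0.16 (Hox), and from -0.31 to 0.15 without maxilla array 2.

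The same jaw difference was then read in 3 other sets of arrays. In proximal control tissue 740 of 13705 genes (5.40%) were called, 2.33% higher in mandible and 3.07% higher in maxilla. In distal mutant tissue 1874 (13.7%) were called, 4.39% and 9.29%, and in proximal mutant tissue 420 (3.06%), 1.26% and 1.81%. Of the 202 distal control calls, 109 (54.0%) were called with the same sign in proximal control, which is 14.7% of the calls there. In distal mutant tissue 168 (83.2%) were called with the same sign, or 8.96% of the calls there, and in proximal mutant tissue 77 (38.1%), or 18.3%. Calls of opposite sign numbered 0, 0 and 2, the last being Bmper (1.14, adjusted p = 0.00833) and Gm715 (0.81, adjusted p = 0.0112) in proximal mutant tissue. The share that recurred proximally was 37.0% for genes higher in mandible (20 of 54) and 60.1% for genes higher in maxilla (89 of 148), a difference that was not tested. In all 4 sets 71 genes were called with 1 sign, 9 higher in mandible and 62 higher in maxilla. By mean difference, Hand2, Pitx1, Tbx4, Plac1 and Gsc led the 9, and Otx2, Lhx2, Neurod1, Sp8 and Neurog1 led the 62. Plac1, a placenta-enriched gene, was the least secure of these at the distal control end (0.90, adjusted p = 0.0484), where the call was lost without any 1 of 7 of the 8 arrays (adjusted p = 0.0515 to 0.22), while it differed by 1.88 in proximal control tissue (adjusted p = 1.23e-05).

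Whether the jaw difference depended on genotype was tested at the distal end. The control minus mutant difference of jaw differences passed for 14 genes (0.102%), and 0 of the 202 distal control calls were among them (limma; 1001 of 13705 genes had an unadjusted p under 0.05). Hand2 differed between the jaws by 4.99 in controls and 5.72 in mutants, and Otx2 by -4.85 and -5.64. Some genes were past the test in controls and not in mutants, such as Tnfsf11 (2.08 and 0.51) and Slc7a8 (1.35 and 0.21), but their genotype dependence did not pass, at 1.57 ± 0.60 (SE, adjusted p = 0.556) for Tnfsf11 and 1.14 ± 0.28 (adjusted p = 0.134) for Slc7a8. Leaving out single arrays or numbers moved the count of 14 to between 0 and 26.

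Whether the jaw difference depended on the end of the jaw was tested in controls. The distal minus proximal difference of jaw differences passed for 42 genes (0.306% of those tested, 0.0949% with a positive and 0.212% with a negative value). Of these 42, 10 were also distal control calls, 5 of each sign. All 10 had the larger difference at the distal end, which their choice as distal control calls favours. Those higher in distal mandible were Sfrp4 (3.01, adjusted p = 0.00423), Cbln4 (2.99, adjusted p = 0.0447), Aqp4 (2.11, adjusted p = 0.0405), Rgcc (1.48, adjusted p = 0.0298) and Masp1 (1.26, adjusted p = 0.0243). Sfrp4 read 10.26 ± 1.09 (SD, n = 4) in distal mandible, 7.34 ± 0.45 in proximal mandible, 7.50 ± 0.44 in distal maxilla and 7.59 ± 0.34 in proximal maxilla. Cbln4 read 10.51 ± 0.19, 7.86 ± 0.45, 6.68 ± 1.16 and 7.01 ± 0.73 in the same order, and Masp1 read 8.98 ± 0.32, 7.88 ± 0.07, 7.62 ± 0.26 and 7.79 ± 0.17. For each of these 3 genes the distal mandible had the highest mean of the 4 control groups. Those higher in distal maxilla were Pde1a (-1.75, adjusted p = 0.0353), Bmper (-1.71, adjusted p = 0.0347), Slitrk5 (-1.62, adjusted p = 0.0353), Clstn2 (-1.52, adjusted p = 0.0204) and Gm715 (-1.17, adjusted p = 0.0494). Bmper read 9.51 ± 0.30 in distal mandible against 11.34 ± 0.33, 10.84 ± 0.27 and 10.95 ± 0.18 in proximal mandible, distal maxilla and proximal maxilla. Slitrk5 read 6.16 ± 0.53 against 8.14 ± 0.27, 8.18 ± 0.37 and 8.54 ± 0.15, and Clstn2 read 8.74 ± 0.27 against 10.38 ± 0.13, 9.75 ± 0.14 and 9.87 ± 0.42. In these 3 genes the distal mandible had the lowest mean of the 4 control groups, and for Clstn2 the proximal mandible also lay above both maxilla groups. The end dependence of Sfrp4 passed without each of the 16 control arrays in turn (adjusted p = 0.000819 to 0.0192). For the other 9 genes the call was lost without some of the 16, from 3 arrays for Masp1 to 12 each for Gm715 and Slitrk5, with adjusted p up to 0.161. Pax7 (-2.99 distally, 0.31 proximally) and Lhx9 (3.04 and 0.60) did not pass the test of end dependence (adjusted p = 0.0575 and 0.0521).

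**Figure D5:**
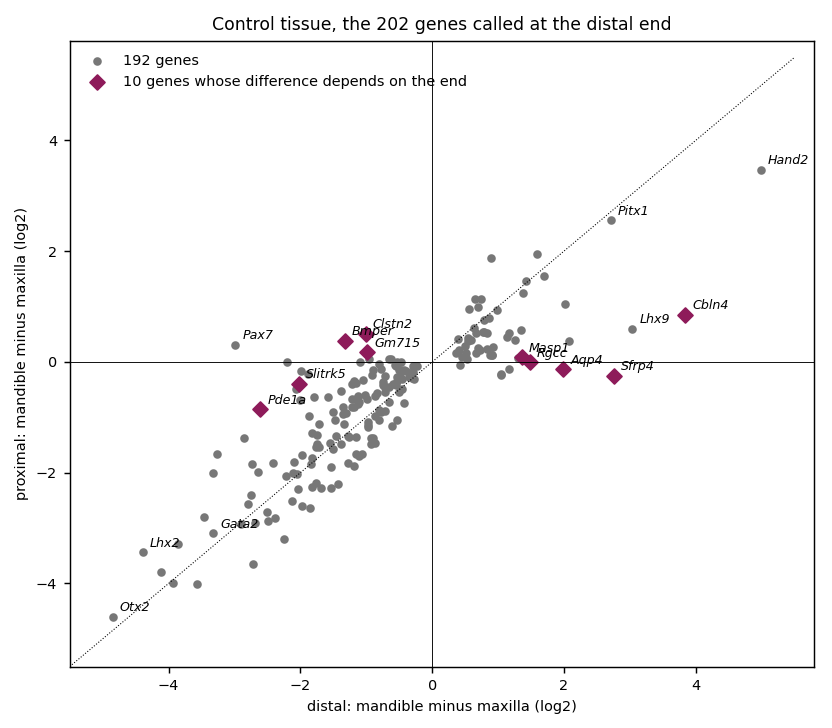
Mandible minus maxilla difference (log2) in proximal control tissue (vertical) against distal control tissue (horizontal) for the 202 distal calls, with diamonds for the 10 genes whose difference depended on the end and a dotted line of equality. Otx2 and Pitx1 lie near the line (-4.85 and -4.60, 2.71 and 2.56), and Sfrp4 lies near 0 on the proximal axis (-0.25).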

How the data were processed

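The deposited values are log2 expression levels, which the authors computed with RMA per the submitters' processing notes (version not given in the sources used here). RMA corrects background, forces every array onto a common distribution and summarises the probes of a set. A shift shared by most genes is therefore removed, and low signals have compressed differences. The number of arrays limits the precision. Probe sets with 1 symbol in the platform annotation (34945 of 45101) were kept above array percentile 40 on at least 4 arrays, and each gene was read from its set of highest mean across the 32 arrays (13705 genes).

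The means of all 8 groups were fitted with limma 3.58.1 (lmFit, eBayes) in R 4.3.3, with 24 residual degrees of freedom and Benjamini-Hochberg adjustment over all genes at 0.05. Tested on simulated data, the fit recovered 26, 46, 48 and 50 of 50 genes changed by log2 0.5, 1, 2 and 3. Of its 183 calls 7.10% were false. The simulated noise was independent between genes and arrays, with no deviant array such as maxilla array 2. These shares therefore need not hold for the real arrays. Named genes were the 15 largest non-overlapping calls in each direction, Dlx1 to Dlx6, Hand1, Hand2, Pou3f3, Pantr1 and Tgfbr1, up to 4 called members in each direction of a list, those distal control calls that also passed an interaction test (at most 5 per sign, by size), and the 5 largest in each direction of the genes called in all 4 jaw comparisons. List members given as not called and gene families were named after their values were seen. The arrays, gene lists and tests were chosen with earlier results of these data known. Promoter windows came from a RefSeq table (GRCm38.p6), matched by symbol. The files name no genome build, so no other coordinates are given.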

Additional observations from a re-analysis of the deposited data

Results flagged for a closer look

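Among 136 groups of 4 distal control values of the named genes, 8 held an array whose gap to its nearest neighbour exceeded Dixon's 95% critical share of the range. Chance alone flags about 1 in 20 groups, so this number is near what chance gives. The arrays were mandible array 1 for Sfrp4 (11.88, next 9.94) and Col14a1 (9.00, next 7.30), and mandible array 3 for Slitrk5 (6.95, next 6.01). Maxilla array 1 stood apart for Pitx1 (8.45, next 9.83) and Foxa1 (10.76, next 9.40). Maxilla array 2 stood apart for Tbx5 (6.68, next 7.03), Krt8 (10.61, next 10.85) and Gm715 (8.18, next 7.69).

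The interaction test in limma for a dependence of the jaw difference on the end passed for 11 named genes. All but Dlx4 met a naming rule that uses this test, so the count follows largely from the choice of genes. Only Sfrp4 kept the call without each of the 16 control arrays in turn. A fit of only the groups compared gave 8 calls over all genes. The distal minus proximal values were 2.99 for Cbln4, 3.01 for Sfrp4, 2.11 for Aqp4, 1.48 for Rgcc and 1.26 for Masp1. They were -1.88 for Dlx4, -1.71 for Bmper, -1.17 for Gm715, -1.52 for Clstn2, -1.62 for Slitrk5 and -1.75 for Pde1a.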

How the results depend on the processing

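Of 47 alternatives 1, which left out maxilla array 2 and mandible array 3, was chosen after seeing the data. In the 23 settings run for the distal control comparison, 0 of 59 called named genes changed sign and 28 kept their call in each, and 45 without each single array. The 202 distal control calls became 115 (26 higher in mandible, 89 in maxilla) in a fit of these groups alone. Of those 115, 84 were among the 202 with the same sign. The count became 1197 (284 and 913) with array weights and 107 (32 and 75) without those 2 arrays. Dlx6 was called with array weights (adjusted p = 0.00664) and in no other setting. With number 1 as a covariate 88 were higher in mandible. With the replicate number as a block 304 passed, 90 higher in mandible, and 195 of the 202 were among them. The same block gave 59 calls for the dependence on end. Pairing by number was not settled: same-number arrays had correlations of deviations of 0.55, 0.14, -0.04 and 0.28. Xist was high on all 4 control arrays numbered 2 (13.53 to 14.06) and low on those numbered 1 (6.38 to 6.54) and 4 (6.46 to 6.85). On control arrays numbered 3 it read 6.70 and 6.84 in mandible but 9.69 and 10.72 in maxilla. Fitting only the groups compared gave 412 calls in proximal control, 225 in proximal mutant and 8 for the dependence on end. Array weights gave 2625, 5779 and 3539 in proximal control, distal mutant and proximal mutant, 730 for the dependence on end and 910 for that on genotype. The dependence on end had 81 calls with number 1 as a covariate, and that on genotype had 6 without the low-signal filter, 4 with probe sets averaged, 5 with centred arrays and 5 without the 2 arrays. Leaving out arrays or numbers gave 66 to 351 calls in distal control (15 to 94 higher in mandible, 40 to 257 in maxilla), 267 to 884 in proximal control, 958 to 2137 in distal mutant, 127 to 628 in proximal mutant, 1 to 122 for the end and 0 to 26 for the genotype. The cause of these shifts was not tested. Low signal limits the size of the 33 and 7 calls whose weaker jaw lay under the low-signal level on all 4 arrays.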
